A study of Mus musculus with 15 samples.

Results

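The apolipoproteins described here are 10 genes, Apoa1, Apoa2, Apoa4, Apoa5, Apob, Apoc1, Apoc3, Apoe, Apom and Apod, chosen by name from the 13938 genes of a table of FPKM values (fragments scaled to transcript length and to the size of the library), and all 10 were found in it. The samples were 3 big and 3 small hepatocellular carcinoma nodules from C57BL/6J mice injected intraperitoneally with diethylnitrosamine (DEN) and carbon tetrachloride (CCl4), one nodule of each size from each of mice 8, 15 and 25, and 3 livers of normal mice injected with corn oil, in columns numbered 2, 3 and 5. The thymi of mice 8, 15 and 25, called model thymi, and of 3 normal mice made up the other 6 samples, and all 15 were bulk poly(A) RNA-seq libraries. The sources used here do not give age, sex, doses or the time of tissue collection. The titles of the livers number 2 of the 3 mice alike, so p-values measure the spread between samples, which may not all be separate animals. The tissue field of the thymi names liver or nodule while their titles say thymus; all 15 hepatocyte markers were higher in every liver and nodule than in every thymus, and all 10 thymocyte markers were higher in every thymus.

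Apolipoproteins are the proteins of lipoproteins, the particles in which cholesterol and triglyceride travel in plasma, and hepatocytes secrete most of those in blood. ApoB is the scaffold of very-low-density and low-density lipoproteins, one molecule staying with each particle, while apoA-I and apoA-II are the main proteins of high-density lipoprotein. ApoC-III, apoC-I and apoA-V act on the lipolysis of triglyceride-rich particles, apoE is the ligand by which remnants enter cells, and apoM and apoD belong to the lipocalins, which bind small lipids. Apoe is also made by macrophages, and Apod by many cell types outside the liver, fibroblasts among them.

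Apoa1, Apoc3, Apoa4 and Apoa5 lie together on mouse chromosome 9 (chr9:46228580-46271919, mm10, from the first base of Apoa1 to the last of Apoa5), within 43.3 kb. Apoe (chr7:19696109-19699188) and Apoc1 (chr7:19689481-19692660) share a second cluster of 27.6 kb with Apoc4 and Apoc2. The other members stand alone, Apob at chr12:7977648-8016835, Apoa2 at chr1:171225054-171226379, Apom at chr17:35128997-35132050 and Apod at chr16:31296192-31314808. All 10 had the same start and end in the GENCODE annotation of mm10. Antisense genes overlap Apoa4 (Gm10680 and Gm47528) and Apoa5 (Gm47544), and, with no source used here stating the use of strand in counting, reads of these pairs may not have been told apart.

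The sequences just before the start sites of 6 members are shown, because the levels of these differed between nodules and livers (Apoa4, Apoa1, Apoa2), turned on single mice (Apob, Apoa5) or were above 0 in thymi alone (Apod). Of the 10 members, 8 matched a RefSeq entry by symbol, and Apoc1 and Apoc3 did not. The sequences come from RefSeq (GRCm38.p6), cover at most 250 bases before the RefSeq start, leave out bases inside annotated coding-gene exons, and run 5′ to 3′ on the strand of the gene. Capitals mark matches on either strand to 5 motifs, the TATA box TATAAA, the forkhead (HNF3) site TGTTTNC, the HNF4-type site CAAAGNNCA, the HNF1-type site GTTAAT and the E-box CACGTG, and no 2 matches overlapped.
Apoa4, chr9:46240594-46240695, plus strand: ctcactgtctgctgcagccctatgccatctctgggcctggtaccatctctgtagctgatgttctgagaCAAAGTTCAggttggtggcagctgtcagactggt
Apoa1, chr9:46228380-46228579, plus strand: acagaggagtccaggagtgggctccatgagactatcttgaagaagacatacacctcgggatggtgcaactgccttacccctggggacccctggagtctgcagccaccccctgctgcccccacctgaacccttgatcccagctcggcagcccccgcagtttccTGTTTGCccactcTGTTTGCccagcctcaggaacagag
Apoa2, chr1:171224804-171225053, plus strand: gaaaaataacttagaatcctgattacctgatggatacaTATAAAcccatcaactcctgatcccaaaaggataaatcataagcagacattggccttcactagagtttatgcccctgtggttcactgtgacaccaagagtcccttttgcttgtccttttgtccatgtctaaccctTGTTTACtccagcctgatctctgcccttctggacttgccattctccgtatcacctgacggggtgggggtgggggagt
Apob, chr12:7977427-7977647, plus strand: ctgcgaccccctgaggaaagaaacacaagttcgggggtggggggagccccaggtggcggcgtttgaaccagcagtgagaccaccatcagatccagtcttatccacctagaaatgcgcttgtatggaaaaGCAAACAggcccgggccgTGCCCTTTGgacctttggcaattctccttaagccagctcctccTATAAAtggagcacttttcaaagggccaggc
Apoa5, chr9:46268383-46268632, plus strand: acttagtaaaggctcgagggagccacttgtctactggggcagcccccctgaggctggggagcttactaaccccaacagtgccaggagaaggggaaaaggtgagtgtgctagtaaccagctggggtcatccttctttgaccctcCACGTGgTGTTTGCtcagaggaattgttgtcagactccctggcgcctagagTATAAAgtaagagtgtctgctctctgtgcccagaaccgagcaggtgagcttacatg
Apod, chr16:31314809-31315058, minus strand: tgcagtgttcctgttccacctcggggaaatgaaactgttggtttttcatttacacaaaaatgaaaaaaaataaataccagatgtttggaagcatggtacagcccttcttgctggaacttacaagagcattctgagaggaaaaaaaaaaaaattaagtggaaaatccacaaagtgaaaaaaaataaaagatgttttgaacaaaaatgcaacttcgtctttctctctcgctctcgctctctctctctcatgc

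Apoa4 held 1 HNF4-type match and Apoa1 held 2 forkhead matches 13 bases apart, so the 2 neighbours on chromosome 9 had no motif in common in these stretches. Apoa5 held an E-box, a forkhead match and TATAAA at -56 to -51 from its RefSeq start. Apob held a forkhead and an HNF4-type match on the other strand and TATAAA at -60 to -55. Apoa2 held a forkhead match and TATAAA at -212 to -207, further from its start. Apod had no match. Among 32851 mouse windows of 250 bases before a start, 12.4% held TATAAA, 17.8% TGTTTNC, 5.49% CAAAGNNCA, 6.43% GTTAAT and 6.02% CACGTG. The stretches of Apoa4, Apoa1 and Apob are shorter than these windows, at 102, 200 and 221 bases. That of Apoa4 covers only positions -250 to -149 from its RefSeq start, so these shares do not apply to them directly. A match is a run of letters and not a measured binding site.

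In nodules, 4 of the 9 members that could be tested differed from normal livers. Apoa4, Apom and Apoa1 were higher and Apoa2 was lower, while Apob, Apoa5, Apoe, Apoc3 and Apoc1 did not pass the test and Apod was listed at 0 in every liver and nodule. The test was limma on log2(FPKM + 1), with the 2 nodules of a mouse averaged, genes kept where 3 or more samples reached 1 FPKM, and Benjamini-Hochberg adjustment over all genes with a threshold of 0.05. By that rule 27.4% of the 10669 genes tested were higher in nodules and 13.1% were lower. Higher genes made up 67.6% of calls, against 78.8% with each sample rescaled to the same sum and 51.2% after quantile normalization, and the median change of all genes, 0.128 on the log2 scale, moved to 0.244 and -0.036. The 4 calls of members held under each of the 18 alternative settings run for this comparison. In bulk tissue, fewer cells of a type and less RNA per cell cannot be told apart.

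**Figure D1:**
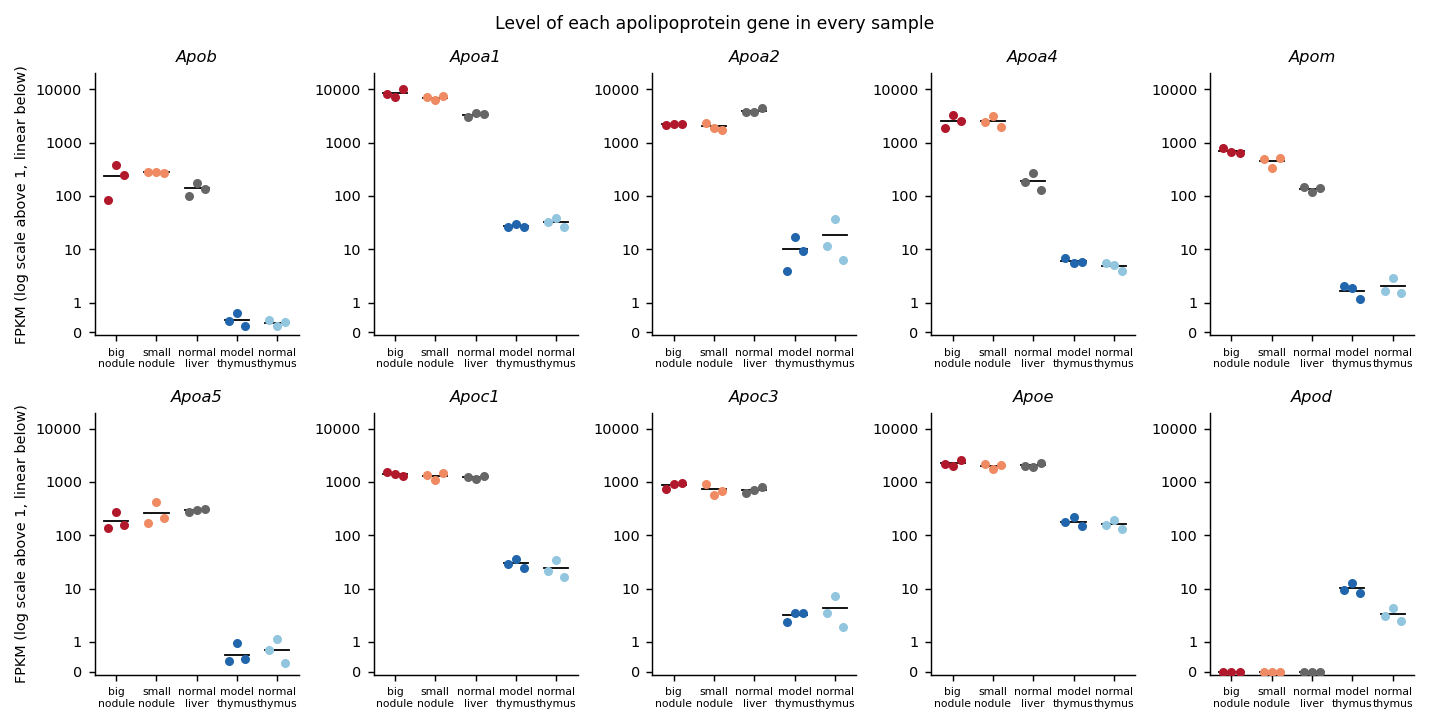
FPKM of each of the 10 genes (one panel per gene, y axis logarithmic above 1 and linear below) in big nodules, small nodules, normal livers, model thymi and normal thymi; each point is a sample. Apoa4, Apom and Apoa1 in the 6 nodules lie above the 3 livers, Apoa2 lies below them, and Apod is above 0 in thymi alone.

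Apoa1, the main structural protein of high-density lipoprotein, was the most abundant member in nodules. It stood at 8083, 7023 and 10047 FPKM in the big nodules and 7150, 6224 and 7593 FPKM in the small nodules of mice 8, 15 and 25, against 3059, 3593 and 3433 FPKM in livers 2N, 3N and 5N. Every nodule was above every liver, with a mean 2.29 times as high (7687 ± 1100 against 3362 ± 274 FPKM, SD, n = 3 mice and 3 livers; log2 change 1.18, SE 0.156, adjusted p = 0.000736). Albumin, the commonest hepatocyte transcript used as a marker, was also higher, with means of 22759 and 11713 FPKM in nodules and livers. The ratio of Apoa1 to albumin was 0.344 ± 0.0323 in big nodules, 0.329 ± 0.0325 in small nodules and 0.288 ± 0.0188 in livers (SD, n = 3 each).

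Apoa2, the second protein of high-density lipoprotein, went the other way. The big nodules of mice 8, 15 and 25 had 2152, 2235 and 2250 FPKM and their small nodules 2364, 1915 and 1748 FPKM, against 3804, 3681 and 4432 FPKM in the livers. No nodule reached the lowest liver, and the mean was 0.531 times that of livers (2111 ± 133 against 3972 ± 403 FPKM, n = 3 each; log2 change -0.91, SE 0.139, adjusted p = 0.0014). The order of the pair was thus turned round: Apoa1 over Apoa2 was 3.79 ± 0.662 in big nodules and 3.54 ± 0.706 in small nodules, and 0.852 ± 0.109 in livers, where Apoa2 was the highest of all members.

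Apoa4, which in mice is made mainly by the intestine and to a lesser degree by the liver and rides on chylomicrons and high-density lipoprotein, differed most. Its values were 1912, 3295 and 2570 FPKM in the big nodules and 2452, 3104 and 2005 FPKM in the small nodules of mice 8, 15 and 25, against 183, 264 and 129 FPKM in the livers. The lowest nodule was well above the highest liver, and the mean was 13.3 times as high (2556 ± 560 against 192 ± 68.0 FPKM, n = 3 each; log2 change 3.76, SE 0.270, adjusted p = 4.15e-05). Apoa4 ranked 37 of 10669 genes by the size of its rise. By mean FPKM it ranked 7 of the 10 members in livers, overlapping Apob and Apom, and 2 in nodules, overlapping Apoe and Apoa2 in both sizes.

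Apom, the lipocalin that carries sphingosine-1-phosphate on high-density lipoprotein, was measured at 801, 656 and 639 FPKM in the big nodules and 490, 337 and 514 FPKM in the small nodules of mice 8, 15 and 25, against 146, 119 and 142 FPKM in livers. All 6 nodules were above the livers, with a mean 4.22 times as high (573 ± 74.7 against 136 ± 14.4 FPKM, n = 3 each; log2 change 2.02, SE 0.153, adjusted p = 5.25e-05).

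Apob, the scaffold of triglyceride-rich particles, did not pass the test. It had 82.5, 374 and 244 FPKM in the big nodules and 282, 285 and 264 FPKM in the small nodules of mice 8, 15 and 25, against 101, 178 and 136 FPKM in livers. Of the nodules, 5 lay above every liver and the big nodule of mouse 8 lay below them (means 255 ± 73.8 and 139 ± 38.5 FPKM; log2 change 0.78, SE 0.302, adjusted p = 0.0717). Without mouse 8 the change was 1.09 (adjusted p = 0.0137), and it also passed with samples rescaled to the same sum (0.93, adjusted p = 0.0378) and after quantile normalization (1.02, adjusted p = 0.0393).

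The low Apob of that nodule came with a different make-up of its transcripts. Apob-203, a 2174-base transcript wholly contained in the last part of the gene (chr12:8012359-8016835), held 31.7% of Apob fragments in the big nodule of mouse 8 and 25.8% in liver 2N, against 1.72% to 2.94% in the other nodules and livers. The full-length Apob-202, of 13934 bases, took the rest, at 56.3 FPKM in that nodule, 75.0 FPKM in liver 2N and 132 to 367 FPKM in the others. Genes whose main transcript has 8000 bases or more had median log2 deviations of -0.109 in the big nodule of mouse 8 and -0.103 in liver 2N. These 2 were the lowest of the 9 by a small margin, since livers 5N and 3N had -0.087 and -0.055. The other nodules lay at 0.007 to 0.145. For genes under 1000 bases the same 2 libraries had -0.029 and -0.006, within the range of the remaining 7, -0.039 to 0.111. With both libraries left out, a setting chosen after seeing the data, Apob changed by 0.87 (adjusted p = 0.0144). Whether RNA length in these libraries set the Apob level was not tested.

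Apoa5, a secreted activator of lipoprotein lipase, and Apoc3, an inhibitor of that lipase, lie in the same cluster as Apoa1 and Apoa4. Apoa5 had 136, 269 and 158 FPKM in the big nodules and 167, 418 and 206 FPKM in the small nodules of mice 8, 15 and 25, against 274, 292 and 310 FPKM in livers. Of the nodules, 5 were below every liver and the small nodule of mouse 15 was above them (log2 change -0.48, SE 0.272, adjusted p = 0.199). Without mouse 15 the change was -0.82 (adjusted p = 0.00673).

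Apoc3 ranged over 580 to 962 FPKM in nodules and 611 to 805 FPKM in livers, and Apoc1, known as an inhibitor of lipoprotein uptake and lipolysis, over 1078 to 1535 FPKM and 1115 to 1295 FPKM. The groups overlapped for both (log2 changes 0.16 and 0.14, adjusted p = 0.417 and 0.423), though both passed after quantile normalization (0.75, adjusted p = 0.00409, and 0.69, adjusted p = 0.00851). Apoe ranged over 1724 to 2568 FPKM in nodules and 1930 to 2299 FPKM in livers, a log2 change of 0.02 (SE 0.144, adjusted p = 0.933). Its sign turned in 8 of the 18 settings, so these data give no direction for Apoe.

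**Figure D2:**
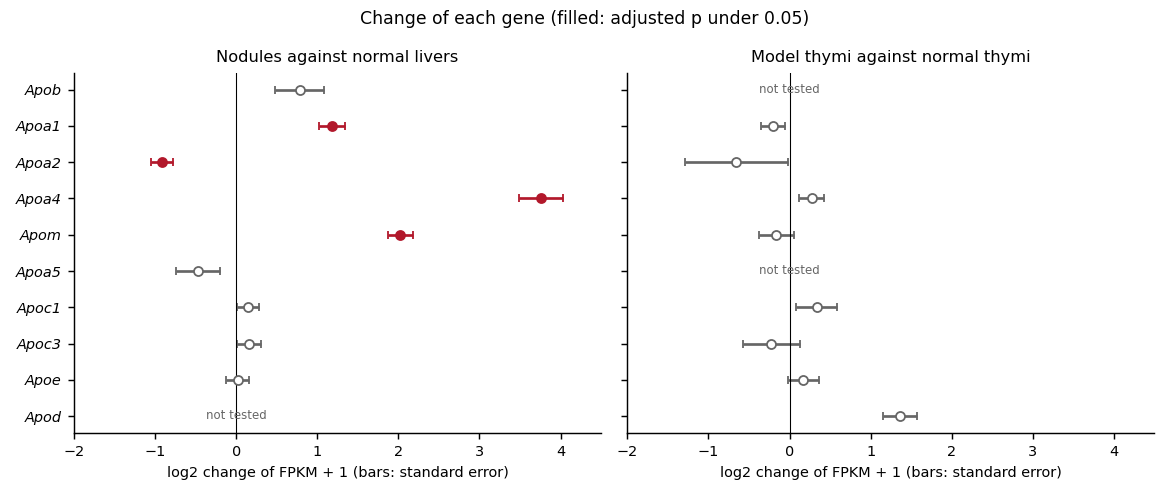
Log2 change of FPKM + 1 for each gene, with its standard error, in nodules against normal livers and in model against normal thymi; filled points have an adjusted p under 0.05. The filled points are Apoa4, Apom and Apoa1 at 3.76, 2.02 and 1.18 and Apoa2 at -0.91 in nodules, and no point is filled in thymi.

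Within the chromosome 9 cluster the changes did not run together. Apoa1 rose by 1.18 and Apoa4, whose start site lies 12.1 kb from it, by 3.76, while Apoc3 between them, at 7.06 kb, had 0.16 and Apoa5, at 40.1 kb, had -0.48, neither past the threshold. In the chromosome 7 cluster Apoe and Apoc1 were near 0, while Apoc4, at 17.7 kb from Apoe, fell by 0.57 (SE 0.131, adjusted p = 0.0103) and was not called in the big nodules alone (adjusted p = 0.0774). The read-through gene Gm44805, described below, overlaps Apoc4 on the same strand. Reads of the pair may have been shared, so the Apoc4 change is uncertain as well.

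Apoc2, the cofactor of lipoprotein lipase and the last gene of that cluster, is no member but had the largest change in the cluster. It was at 344, 368 and 326 FPKM in the big nodules and 322, 283 and 480 FPKM in the small nodules of mice 8, 15 and 25, against 15.7, 14.2 and 7.67 FPKM in livers (log2 change 4.75, SE 0.243, adjusted p = 9.53e-06). The size of this change is uncertain, because the read-through gene Gm44805, which joins the first exon of Apoc4 to Apoc2, shares 646 of its 765 bases with transcript Apoc2-203. Gm44805 had 332 to 512 FPKM in big nodules, 182 to 400 FPKM in small nodules and 89.2 to 106 FPKM in livers, so most FPKM of the shared exons in livers were assigned to it. The 2 genes summed to 856, 861 and 657 FPKM in the big nodules and 722, 465 and 764 FPKM in the small nodules, against 121, 103 and 112 FPKM in livers: the locus as a whole was higher in every nodule.

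**Figure D3:**
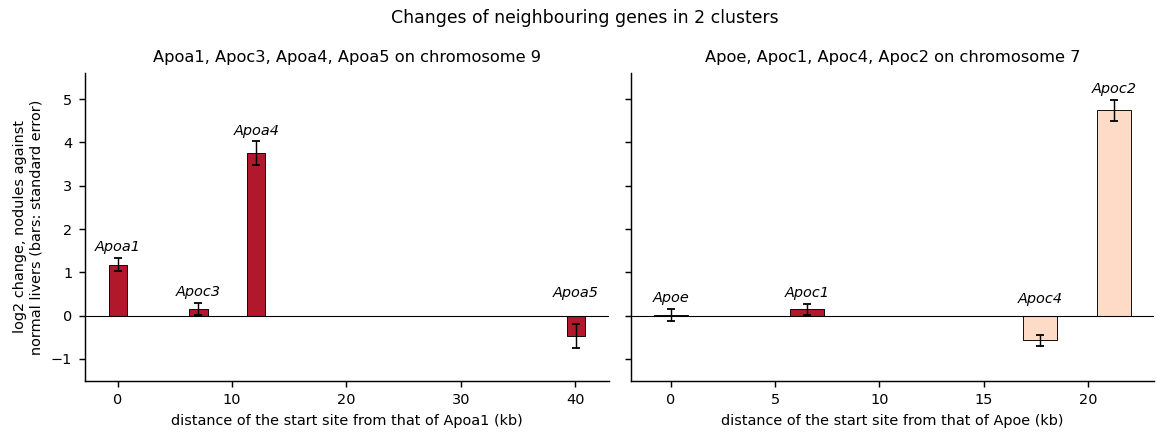
Log2 change in nodules against normal livers, with its standard error, of the genes of the Apoa1 cluster (left) and the Apoe cluster (right), placed by the distance of their start sites from that of Apoa1 or Apoe in kb. Apoa4 at 3.76 stands beside Apoc3 at 0.16, and Apoc2 at 4.75, a value that shares reads with a read-through gene, beside Apoc4 at -0.57, which that gene also overlaps.

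The transcript table listed 32 transcripts of the 10 genes, of which 31 averaged at least 1 FPKM in some group. In nodules against livers, 11.8% of 16969 transcripts tested were higher and 6.52% were lower. Apoa4-201 and Apom-201, the single transcripts of their genes, and Apoa1-201 (log2 change 1.18, adjusted p = 0.00423) and Apoa1-202 (0.92, adjusted p = 0.02) were higher. All 4 Apoa2 transcripts were lower, Apoa2-201 with a log2 change of -0.93 (adjusted p = 0.00379) and Apoa2-204 with one of -0.88 (adjusted p = 0.00502), while 3 calls depended on single samples. Apoa1-202 lost its call without mouse 8, mouse 25 or liver 3N, Apoa2-203 without any 1 of the 3 mice or liver 3N, and Apoa2-202 without any 1 of the mice, liver 2N or liver 3N. None of the transcripts of Apoe, Apoc1, Apoc3 and Apob passed.

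For Apoa5, 1 transcript was higher and 2 were lower in nodules. Apoa5-202 begins with a first exon of 206 bases, which Apoa5-201 lacks, and the 2 share 2309 bases and the same coding part. The sequence printed for Apoa5 ends just before the start of Apoa5-202. Apoa5-201 starts further into the gene, at chr9:46269078, and the bases before that start are not shown. Apoa5-201 held 79.8% of Apoa5 fragments in the big nodule of mouse 15 and 82.9%, 76.3% and 83.7% in the small nodules of mice 8, 15 and 25, against 0.931% to 1.08% in livers. The big nodules of mice 8 and 25 were nearer to livers but above every liver, at 2.00% and 4.07%. The 6 nodules thus fell into 4 with the short form as the main one and 2 where it was minor, and the 2 sizes differed within mice 8 and 25.

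Apoa5-201 changed by 3.96 in nodules (SE 0.883, adjusted p = 0.0292) and Apoa5-202 by -2.05 (SE 0.115, adjusted p = 0.000511). The means of Apoa5-202 were 82.3 ± 7.99 FPKM over the 3 mice and 284 ± 17.7 FPKM in livers. Averaging the 2 nodules of a mouse hid a wider spread. Single nodules had 53.6 to 150 FPKM among the big and 27.8 to 98.4 FPKM among the small ones. The minor Apoa5-203 also fell (-2.24, adjusted p = 0.0018). The call of Apoa5-201 was lost without mouse 25 (adjusted p = 0.0588) and without liver 2N, 3N or 5N (adjusted p = 0.0792, 0.0752 and 0.0702). The 2 forms differ at the 5′ end, so the split rests on fragments from that end and on how they were assigned.

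Big and small nodules were each set against livers as well. In big nodules, Apoa4 (3.77), Apom (2.35) and Apoa1 (1.31) were higher and Apoa2 (-0.84, adjusted p = 0.00493) was lower, where 22.7% of 10209 genes were called higher and 13.3% lower. The call of Apoa2 was lost after quantile normalization (-0.61, adjusted p = 0.0902) and without liver 2N and the big nodule of mouse 8 (-0.85, adjusted p = 0.0565). Apob was called without the big nodule of mouse 8 (1.16, adjusted p = 0.0228) and Apoa5 without that of mouse 15 (-0.99, adjusted p = 0.00683) or with median-of-ratios scaling (-0.76, adjusted p = 0.0451). Apoc3 (0.88, adjusted p = 0.0116) and Apoc1 (0.71, adjusted p = 0.0111) were called after quantile normalization. Higher genes were 63% of those calls, 74.8% after rescaling to the same sum and 51.5% after quantile normalization.

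In small nodules, Apoa4 (3.74), Apom (1.69), Apoa1 (1.05) and Apob (1.03, adjusted p = 0.00684) were higher and Apoa2 (-0.99, adjusted p = 0.00396) was lower, where 23.7% of 10262 genes were called higher and 10.3% lower. Small nodules agreed closely in Apob, at 277 ± 11.2 FPKM, against 234 ± 146 FPKM in big nodules and 139 ± 38.5 FPKM in livers. The call of Apoa2 was lost after quantile normalization (-0.74, adjusted p = 0.0622), where Apoc3 (0.63, adjusted p = 0.0194) and Apoc1 (0.56, adjusted p = 0.0295) were called, and Apoa5 was called without the small nodule of mouse 15 (-0.65, adjusted p = 0.0236). Higher genes were 69.6% of those calls, 80.9% after rescaling, 58% after median-of-ratios scaling and 50.6% after quantile normalization.

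Between big and small nodules themselves, none of the 9 members tested was called, nor was any of 10415 genes (0% higher and 0% lower), with 417 genes at an unadjusted p under 0.05. Apom was the member that came nearest, at 699 ± 88.9 FPKM in big and 447 ± 96.3 FPKM in small nodules (n = 3 each), and in each of mice 8, 15 and 25 the big nodule was the higher (log2 change 0.66, SE 0.204, adjusted p = 0.949). Every big nodule was above every small one, as for 3.16% of all genes. With the mouse as a block, the design that matches the labels, still no gene was called and Apom had an adjusted p of 0.672.

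The 10 genes made up 5.61% ± 0.553 of all FPKM in big nodules and 4.91% ± 0.201 in small nodules, against 3.25% ± 0.280 in livers (SD, n = 3 each), and 0.117% ± 0.0197 in model thymi against 0.104% ± 0.0226 in normal thymi. Leaving out major urinary protein genes, albumin and mitochondrially encoded genes gave 6.56%, 5.92% and 4.37% in big nodules, small nodules and livers, in the same order. FPKM values keep no read number, so the depth behind each value is unknown.

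Genes that work with apolipoproteins were counted from gene lists, to be read against the 27.4% higher, the 13.1% lower and the median change of 0.128 among all 10669 genes tested. Of 18 genes of lipoprotein assembly and secretion, 4 were higher and 2 lower in nodules (median 0.137), near those shares. Tm6sf2, which promotes lipidation of very-low-density lipoprotein, averaged 22.9 ± 1.97 FPKM in nodules and 8.42 ± 0.871 FPKM in livers (log2 change 1.34, adjusted p = 0.000152). Soat2, which esterifies cholesterol in hepatocytes, rose by 1.64 (adjusted p = 0.000407) and Pla2g12b, needed for secretion of large particles, by 0.93 (adjusted p = 7e-04). Cideb, a lipid-droplet protein that aids particle lipidation, changed by -0.44 (adjusted p = 0.0209) and Sar1b, the coat GTPase of export vesicles, by -0.51 (adjusted p = 0.0325). Both lost the call with samples rescaled to the same sum or quantile-normalized, Cideb also without mouse 8, liver 2N or liver 5N, and Sar1b without any 1 sample other than liver 2N.

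Among 15 receptor genes tested, 6 were higher and 1 lower (median 0.368). Scarb1, the receptor for high-density lipoprotein, averaged 24.7 ± 1.22 FPKM in nodules and 8.44 ± 1.10 FPKM in livers (log2 change 1.44, adjusted p = 0.000112). Stab1, an endothelial scavenger receptor, changed by 0.95 (adjusted p = 0.00109). Sorl1, a sorting receptor that binds apoE and apoA-V, is counted among the 6, but at 1.12 FPKM in nodules and 0.173 FPKM in livers it passed the filter through nodules alone, so its call carries no weight. Lrp1, the remnant receptor that binds apoE, was lower (log2 change -0.49, adjusted p = 0.0175), and not called after rescaling (adjusted p = 0.0721) or without mouse 8 or liver 2N (adjusted p = 0.0505 and 0.0573).

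Of 15 plasma enzymes and their regulators, 4 were higher and 6 lower (median -0.166). Lpl, the lipase that apoC-II activates and apoC-III inhibits, averaged 44.8 ± 24.2 FPKM in nodules and 1.76 ± 0.192 FPKM in livers (log2 change 3.85, adjusted p = 0.000186). Angptl8, a regulator of that lipase, changed by 2.19 (adjusted p = 0.00147) and Pla2g7, an enzyme that hydrolyses oxidized phospholipid, by 1.67 (adjusted p = 0.00111). Pon1, an esterase carried on high-density lipoprotein, averaged 44.4 ± 24.3 FPKM in nodules and 331 ± 22.6 FPKM in livers (-3.11, adjusted p = 0.000235), and hepatic lipase Lipc was lower too (-1.93, adjusted p = 0.0015). Endothelial lipase Lipg is counted among the 6 (-1.95). Its change ranged over -3.15 to -0.91 over the alternative settings, so its size is uncertain and no weight is put on its call.

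Of 12 genes of lipid efflux and nuclear receptor targets, 7 were higher and 0 lower (median 0.63). Abcg8, a subunit of the canalicular sterol pump, rose by 1.5 (adjusted p = 5e-04), Abcg1, which loads cholesterol on high-density lipoprotein, by 1.19 (adjusted p = 0.000427), and Npc2, a lysosomal cholesterol carrier, by 0.84 (adjusted p = 0.000918). Of 25 transcription regulators of apolipoprotein genes, 3 were higher and 5 lower (median -0.166). Foxa3, a forkhead factor of hepatocytes, changed by 1.05 (adjusted p = 0.0107), and Nr2f2 (-1.06, adjusted p = 0.0139) and Mlxipl (-0.69, adjusted p = 0.00429) were lower. Without liver 2N and the big nodule of mouse 8 both lost the call (adjusted p = 0.0511 and 0.0581). Rora (0.40, adjusted p = 0.0295) and Nr5a2 (0.38, adjusted p = 0.0432) lost the call in 4 and 5 of the 6 settings that leave out 1 mouse or liver, and both lost it after median-of-ratios scaling and quantile normalization.

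Of the other apolipoproteins, 15 were tested, with 2 higher and 9 lower (median -0.568). Beside Apoc2, the higher one was Clu, or apolipoprotein J, at 691 ± 30.9 FPKM in nodules and 322 ± 11.4 FPKM in livers (log2 change 1.09, adjusted p = 0.000249). Apol7a (-2.32, adjusted p = 0.000112) and Apon (-0.68, adjusted p = 0.00244) were lower.

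Markers of cell types moved in the same comparison, where 27.4% of all genes tested were higher and 13.1% were lower. Of 15 hepatocyte markers, 8 were higher and 2 lower, with sums of 41287 to 52767 FPKM in nodules and 26431 to 28424 FPKM in livers. Macrophage markers were higher in 8 of 13 (sums 323 to 493 and 194 to 259 FPKM), endothelial ones in 5 of 7 tested, and fibroblast ones in 5 of 8, with 1 lower. Of 6 adipocyte markers tested, 4 were higher and 2 lower, and of 5 cholangiocyte markers 3 were higher. The part of these cells in the changes of the apolipoprotein genes was not tested.

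In thymi, 9 of the 10 genes were far below livers and Apod was above them. Normal thymi against normal livers gave lower values for all members other than Apod. Apob and Apoa5 passed the filter through the livers alone, so no test of their difference is given. For the rest the adjusted p ran from 9.01e-09 to 8.58e-07 (limma), where 22.8% of 11763 genes were called lower and 61.8% higher. Higher genes were 73% of those calls, 56.3% after median-of-ratios scaling and 58.3% after quantile normalization. Apod was listed at 0 in the 3 livers and at 3.08, 4.36 and 2.49 FPKM in normal thymi 2, 3 and 5. It passed the filter through the thymi alone, so no test of this difference is given.

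The thymus level as a share of the liver level set Apoe apart. Mean Apoe was 161 FPKM in normal thymi, 7.73% of the 2079 FPKM of livers, and the next were Apoa4 at 2.52%, Apoc1 at 1.99% and Apom at 1.5%. Apoa1 stood at 0.964%, Apoc3 at 0.603%, Apoa2 at 0.459%, Apoa5 at 0.244% and Apob at 0.234%. The 15 hepatocyte markers measured the same way spanned 0.126% to 0.992% with a median of 0.361%, and none of them was at 0 in any thymus. Apoa1, Apoc3, Apoa2, Apoa5 and Apob thus lay within the span of the markers, and Apoe, Apoa4, Apoc1 and Apom above it. Whether liver-type RNA in thymi came from thymus cells or from liver RNA was not tested.

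**Figure D4:**
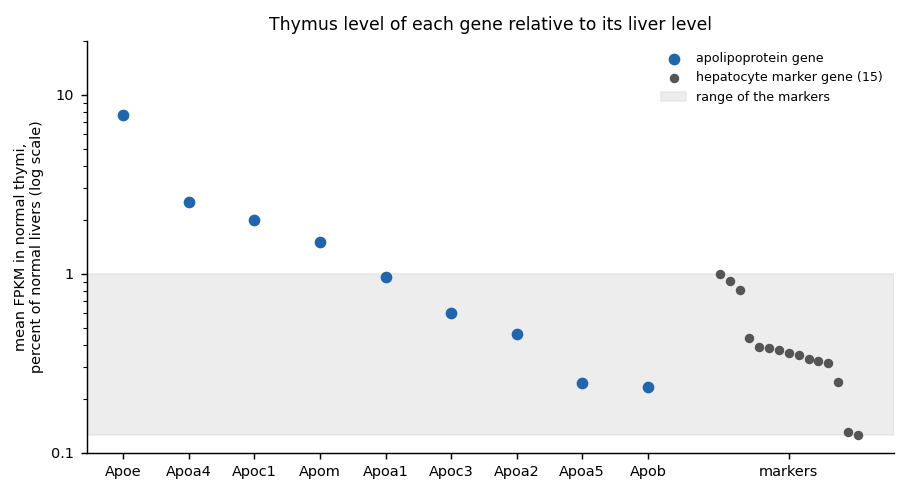
Mean FPKM in normal thymi as a percent of the mean in normal livers (log axis) for 9 apolipoprotein genes and, at the right, for 15 hepatocyte markers; Apod has no value because livers are at 0. Apoe at 7.73% lies highest, and 5 genes lie in the span of the markers, 0.126% to 0.992%.

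By mean FPKM the order in normal thymi was Apoe, Apoa1, Apoc1, Apoa2, Apoa4, Apoc3, Apod, Apom, Apoa5 and Apob. Apoe was clear of the next gene, and among neighbours in this order the ranges of Apoa1 and Apoc1, of Apoc1 and Apoa2, of Apoa4 and Apoc3, of Apoc3 and Apod, of Apod and Apom and of Apoa5 and Apob overlapped. In model thymi Apod ranked 4, behind Apoe, Apoc1 and Apoa1, and its range overlapped that of Apoa2 alone among its neighbours.

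Model and normal thymi were compared next, the question behind taking thymi of tumour-bearing mice. None of the 8 members that passed the filter was called, nor was any of 11332 genes (0% higher and 0% lower by limma), while 1159 genes had an unadjusted p under 0.05. Apod had 9.37, 12.7 and 8.13 FPKM in the model thymi of mice 8, 15 and 25, against 3.08, 4.36 and 2.49 FPKM in normal thymi 2, 3 and 5. Every model thymus was above every normal one, as for 12.3% of all genes, and the means were 10.1 ± 2.38 and 3.31 ± 0.955 FPKM (SD, n = 3 each).

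The log2 change of Apod was 1.36 (SE 0.210), rank 5 of 11332 genes by unadjusted p (0.000211, limma), with an adjusted p of 0.435 that ranged from 0.195 to 0.801 over the alternatives. Its transcripts did not pass either, Apod-203 with 1.49 (adjusted p = 0.498) and Apod-202 with 1.03 (adjusted p = 0.739). With 3 samples a group an exact permutation test cannot go below 0.1. Without normal thymus 2, 11 genes were called, Apod not among them (adjusted p = 0.265).

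No marker of a cell type was called in the same comparison. Fibroblast markers summed to 37.6 to 75.6 FPKM in model thymi and 29.7 to 39.6 FPKM in normal thymi, with a higher mean in 11 of 11 genes and no overlap in 3. Macrophage markers summed to 402 to 586 FPKM and 300 to 468 FPKM, higher on average in 13 of 13 and without overlap in 4, and endothelial markers to 28.8 to 37.5 FPKM and 20.4 to 24.9 FPKM, higher in 8 of 8 and without overlap in 5. Adipocyte markers summed to 28.8 to 34.2 FPKM and 29.0 to 64.4 FPKM, with lower means in all 10 genes and no overlap in 4, while of all genes 6.53% were lower and 12.3% higher in every model thymus than in every normal one. Hepatocyte markers had a higher mean in 1 of 15, at 144 to 183 FPKM and 140 to 215 FPKM. Thymocyte markers had a higher mean in 4 of 10, and 2 were lower in every model thymus than in every normal one. Those of thymic epithelium had a higher mean in 6 of 10, with 1 gene above and 1 below without overlap. The share of all genes with a higher mean is not given, so the counts of higher means have no background beside them. The part of these cells in the Apod values was not tested.

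Apoe, the most abundant member in thymi, had 177, 218 and 148 FPKM in the model thymi of mice 8, 15 and 25 and 155, 195 and 132 FPKM in normal thymi 2, 3 and 5, overlapping groups (log2 change 0.17, SE 0.192, adjusted p = 0.705). Apoc1, its neighbour, had 29.2, 35.9 and 24.8 FPKM and 21.7, 34.6 and 16.7 FPKM (0.34, adjusted p = 0.595). Apoa4 had 6.83, 5.43 and 5.81 FPKM in model thymi and 5.52, 5.07 and 3.92 FPKM in normal thymi (0.27, adjusted p = 0.534). Apoa1 ranged over 26.6 to 29.97 FPKM and 26.3 to 38.0 FPKM (-0.21, adjusted p = 0.579).

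Apoa2, Apoc3 and Apom had their highest thymus value in normal thymus 3, at 36.8, 7.42 and 2.96 FPKM, and without it their changes turned sign, at 0.0029, 0.185 and 0.0441. In that library genes with a main transcript under 1000 bases stood 0.428 above and those of 8000 bases or more 0.341 below their mean over thymi, as a median, on the log2 scale. Apob and Apoa5 were under 1.2 FPKM in every thymus and could not be tested.

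**Figure D5:**
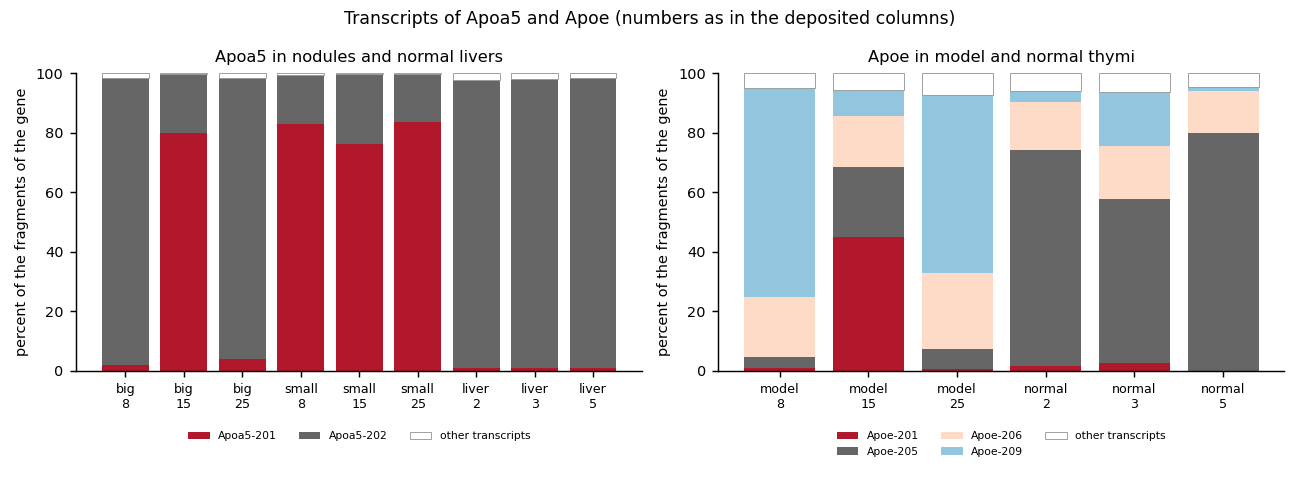
Percent of the fragments of Apoa5 in nodules and normal livers (left) and of Apoe in model and normal thymi (right) assigned to each transcript; each bar is a sample. Apoa5-201 holds 76.3% to 83.7% in 4 nodules and at most 4.07% elsewhere, and Apoe-205 holds 55.1% to 80.0% in normal and 3.77% to 23.7% in model thymi.

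The shares of Apoe transcripts in thymi are given by value, since no test of the shares was run and no Apoe transcript passed the test there. Apoe-205 held 3.77%, 23.7% and 6.64% of Apoe fragments in the model thymi of mice 8, 15 and 25, against 72.6%, 55.1% and 80.0% in normal thymi 2, 3 and 5. The groups did not overlap, and in FPKM they were 11.4, 88.9 and 16.7 in model thymi against 190, 183 and 180 in normal thymi (log2 change -2.78, SE 0.716, adjusted p = 0.711). Of all transcripts tested, 5.86% were lower in every model thymus than in every normal one. Without the model thymus of mouse 15 the change was -3.64 (adjusted p = 0.0167), so that 1 library decided the call.

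Apoe-209 and Apoe-201 did not pass either (adjusted p = 0.739 and 0.788), and their ranges overlapped. Apoe-209, the main form of livers and nodules at 50.1% to 57.1%, held 70.3% and 59.8% in the model thymi of mice 8 and 25 and 8.79% in that of mouse 15, where Apoe-201 held 44.9%, and Apoe-209 held 1.18% to 18.04% in normal thymi. Apoe-205 and Apoe-209 share 1067 bases and the same coding part and differ in their first exons. In the transcript comparison of thymi, 0.102% of 17643 transcripts were called higher and 0.034% lower, no transcript of a member among them.

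The interaction tested whether a gene changed differently in liver and thymus, as the nodule change minus the thymus change. By that rule 14.6% of 12683 genes were called positive and 7.62% negative. Of the members other than Apod, Apob and Apoa5, 3 were positive and 0 negative. Positive ones were 65.6% of all calls and 54.9% after quantile normalization. Apoa4 had 3.48 (SE 0.328, adjusted p = 1.29e-05), Apom 2.18 (SE 0.271, adjusted p = 0.000116) and Apoa1 1.39 (SE 0.216, adjusted p = 0.000632). Apod, at 0 in all 9 liver and nodule samples, has no nodule change to set against its thymus change and is not counted. Apob and Apoa5 did not pass the filter within thymi, so they had no thymus change to test and are not counted either.

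The genes whose levels ran most like each member were found by the mean absolute difference of centred log2(FPKM + 1) over the 15 samples, a measure set mainly by the gap between liver and thymus. For genes near or below 1 FPKM in thymi the added 1 narrows that gap. Apoa1 was nearest to Alb (0.119) and Serpinf2 (0.156), and Apoe to Ropn1l (0.12) and Colec11 (0.147). In normal thymi Ropn1l and Colec11 averaged 0.549 and 0.300 FPKM, against 161 FPKM for Apoe, so they do not share its thymus level. Apom was nearest to Ces2e (0.194) and Rdh16f2 (0.257), and Ces2e was also the nearest to Apoa4, at a wider 0.56, followed by Angptl8 (0.613). Apoa5 was nearest to Slc27a2 (0.172) and Aadac (0.222), Apoc3 to Uox and Adh1 (0.198 each), and Apoc1 to Gls2 (0.195). Apob was nearest to Hsd17b13 (0.33) and Afm (0.358), and Apoa2 to Ces1c (0.325) and Mettl7b (0.332). Apod, at 0 outside the thymus, was nearest to Serpinb3a (0.175) and Txk (0.232).

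Across libraries, summed FPKM was 331746 to 338793 in nodules, 364160 to 377984 in livers and 225669 to 257205 in thymi. Mitochondrially encoded genes held 2.88% of FPKM in the big nodule of mouse 25 and 6.93% to 11.1% in the other livers and nodules; with mouse 25 taken by its small nodule alone, the 4 member calls in nodules stood.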

How the data were processed

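Poly(A) RNA from 15 mouse samples was made into stranded libraries and sequenced on an Illumina instrument, as the labels' protocols state. The deposited FPKM values, per gene and per transcript, are those of the authors. Tools named in the submitters' processing notes are HISAT2 2.1.0, StringTie 1.3.3, cutadapt and FastQC 0.11.7, with mm10 as the build. FPKM keeps no depth, so no counting interval can be given, and no source used here states the use of strand in quantification. Exact zeros are described as listed at 0. Values were tested as log2(FPKM + 1) with limma 3.58.1 under R 4.3.3, using a mean-variance trend, on genes of at least 1 FPKM in at least 3 samples, with p-values adjusted over all genes (Benjamini-Hochberg). The script was tested on simulated data. Members and gene lists were chosen with earlier results of these data known. Named were all 10 members, up to 3 called genes per list and direction, and the 2 nearest genes of each member, apart from results that are not reported here; Gm44805, Alb and the group of 4 nodules by Apoa5 form were chosen after their values were seen. Of the table's gene IDs, 99.8% matched GENCODE M21 without version. Big and small nodules of a mouse are paired by their titles, and their deviations correlated at 0.256 to 0.32, against -0.236 to -0.0457 between mice. Alternatives were pseudocounts of 0.1 and 5, no or a stricter filter (FPKM of at least 5), 3 other scalings, no trend, each replicate left out, nodule sizes alone, and the replicate block. Promoter sequences are those of RefSeq (GRCm38.p6).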

Additional observations from a re-analysis of the deposited data

Results flagged for a closer look

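These results are listed because the change in nodules against normal livers differed from the change in model against normal thymi by the test of that difference (limma interaction, adjusted p under 0.05), given as the nodule change minus the thymus change on the log2 scale. Among the members, Apoa4 had 3.48, Apom 2.18 and Apoa1 1.39; Apod, listed at 0 in all livers and nodules, is left out. Of 28 further genes named from the lists, 21 differed, beside 14.6% positive and 7.62% negative among all genes; they were named for their change in nodules, so their count supports nothing. The positive values were Apoc2 4.25, Lpl 3.61, Angptl8 2.45, Soat2 1.76, Abcg8 1.5, Tm6sf2 1.37, Scarb1 1.36, Clu 1.02, Foxa3 1.00, Pla2g12b 0.93, Abcg1 0.86, Npc2 0.80 and Stab1 0.66. The negative values were Pon1 -2.90, Apol7a -2.37, Lipc -2.03, Lipg -1.88, Nr2f2 -1.09, Lrp1 -0.95, Apon -0.71 and Mlxipl -0.54. The value of Apoc2 shares reads with the read-through gene Gm44805. That of Lipg is of uncertain size, since its nodule change ranged over -3.15 to -0.91 over the alternative settings. For a gene very low in thymi the value largely repeats its nodule change and is no measure of a thymus response. Angptl8 was such a gene, with means of 0.508 FPKM in normal and 0.257 FPKM in model thymi. Unlike the members, the list genes were not required to pass the filter within thymi. It was passed there by 8 of 25 regulators and 14 of 16 receptor genes. The values of Pla2g12b, Abcg8, Tm6sf2, Apol7a and Nr2f2 lay close to their nodule changes of 0.93, 1.5, 1.34, -2.32 and -1.06. Their thymus levels are not given, so no thymus response can be read from these values.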

How the results depend on the processing

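Apoa4, Apom, Apoa1 and Apoa2 kept their direction and their call in nodules against normal livers in all 18 settings, with log2 changes of 3.50 to 4.02, 1.69 to 2.36, 1.05 to 1.44 and -1.01 to -0.73. Calls in that comparison numbered 4316, and 2606 with a filter of 5 FPKM, which tests fewer genes; in big nodules the count was 3679, with 2242 at that filter and 1404 without liver 2N and the big nodule of mouse 8 (fewer samples). In small nodules it was 3489, 2024 at that filter and 2084 to 2646 with 1 sample left out. Leaving out 1 sample gave 0 to 1 calls in big against small nodules (1 without the small nodule of mouse 8), 0 to 11 in model against normal thymi, 1806 to 2064 of 3112 for transcripts in nodules, and 4 to 20 of 24 for transcripts in thymi, where a pseudocount of 0.1 left 12. The share of FPKM without major urinary protein, albumin and mitochondrial genes was 6.56% in big nodules, 5.92% in small nodules and 4.37% in livers. Changes that turned sign were all below the threshold, and the cause was not tested. In nodules Apoe gave -0.0801 with median-of-ratios scaling, -0.0757 with small nodules alone, -0.0371 with the small nodule of mouse 25 alone, -0.0041 without liver 2N and the big nodule of mouse 8, and -0.0438 to 0.102 with 1 sample left out. In small nodules Apoe gave 0.075 with the same sum, 0.243 after quantile normalization and -0.145 to 0.0194 with 1 left out; Apoc3 gave -0.0941 and Apoc1 -0.0434 with median-of-ratios scaling, and -0.173 to 0.166 and -0.0252 to 0.193 with 1 left out; Apoa5 gave 0.0086 after quantile normalization and -0.647 to 0.0102. In big against small nodules the leave-one-out ranges were -0.959 to 0.126 for Apob and -0.162 to 0.230 for Apoa4. In model against normal thymi they were -1.17 to 0.0029 for Apoa2, -0.287 to 0.0441 for Apom and -0.574 to 0.185 for Apoc3. In the interaction, Apoa5 gave 0.0204 and Apoc1 0.116 after quantile normalization, and the ranges were -0.918 to 0.256 for Apoa2, -0.0278 to 0.732 for Apoc3 and -0.469 to 0.0362 for Apoc1. Apob-203 ranged over -0.492 to 0.859 in nodules and Apoe-201 over -0.193 to 2.75 in thymi. With the replicate block, calls numbered 0 in big against small nodules, 9957 against 9958 in normal thymi against livers and 2955 against 2815 in the interaction; the block changed no member's call. FPKM values give no read numbers, so how far depth limits the low thymus values cannot be told.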
